A study of Mus musculus with 18 samples.

Results

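Villus-derived cultures (VIL) and Matrigel crypt organoids (MG_Control) were 2 of the culture types of mouse small intestine profiled by RNA sequencing, and all genes of both were compared. Members were taken by their labels: 3 VIL and 3 MG_Control libraries, 6 of the 18 in the series, and 16699 of 55414 genes passed the filter on low counts. VIL cultures were started from villi scraped off the 3 cm of C57BL/6J wild-type intestine next to the pylorus and were grown in collagen type I under 25% cWRNE medium, whose recipe was not used here. COL_cWRNE organoids were started from C57BL/6J wild-type crypts released with EDTA from small intestine, no segment being named, and shared collagen type I and the 25% cWRNE medium with VIL (3 libraries). MG_Control organoids came from crypts obtained in the same way, but in Matrigel under ENR medium, which holds EGF at 50, Noggin at 100 and R-spondin 1 at 400 ng/mL. None of the 3 groups received a drug, and RNA was taken from all of them on day 6. Tissue of origin, matrix and medium all differ between VIL and MG_Control, and gut segment may, so their parts in any difference cannot be told apart. COL_cWRNE shares matrix and medium with VIL but not tissue of origin, and its values are given beside the main comparison; COL_cWRNE was not tested against MG_Control here.

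In the small intestine, stem cells marked by Lgr5 and Olfm4 lie at the crypt base between Paneth cells and feed dividing progenitors, whose offspring differentiate as they move onto the villus. Villi therefore carry mature enterocytes and secretory cells around a core of fibroblasts, smooth muscle, vessels and immune cells. Epithelium that regenerates after injury, or that is cultured in collagen, is known to switch on genes of the fetal intestine such as Ly6a, Clu and Anxa1, a state tied to the mechanosensitive co-activator YAP.

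Depth was similar across the libraries, at 27.6, 34.5 and 23.1 × 1e6 estimated counts in VIL, 29.8 to 33.2 × 1e6 in COL_cWRNE and 26.2 to 31.5 × 1e6 in MG_Control. VIL libraries differed more among themselves than the others did: the SD of the log2 difference between libraries of a pair was 0.442 to 0.806 in VIL, 0.263 to 0.338 in COL_cWRNE and 0.291 to 0.399 in MG_Control. VIL replicate 1 held more enterocyte and secretory transcripts, and VIL replicates 2 and 3 more macrophage and fibroblast transcripts, as given below. Levels are given as CPM, a gene's counts as a part per 1e6 of the library after TMM (trimmed mean of M values) scaling. The intestinal epithelial label held in every library. The 24 epithelial identity genes summed to 27233, 29802 and 27477 CPM in VIL, 32035, 33319.8 and 26909 CPM in COL_cWRNE and 16329.9, 17823 and 17507 CPM in MG_Control. Gene by gene, in the test described below, 10 of the 24 were higher in VIL than in MG_Control, 4 lower and 10 not called. All 24 had at least 10 counts in each MG_Control library, where 23.1% of all genes were higher and 23.5% lower. The counts were 7 higher and 2 lower without MG_Control replicate 1 or 2. They were 9 and 1 without MG_Control replicate 3, and 9 and 6 without VIL replicate 1. The median log2 fold change of the 24 was 0.04. Epcam, the pan-epithelial adhesion molecule, was at 2368, 1704 and 2086 CPM in VIL and 1431, 1598 and 1521 CPM in MG_Control.

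VIL and MG_Control differed widely. Of the 16699 genes tested, 7789 (46.6%) differed at an adjusted p under 0.05 in edgeR's quasi-likelihood test with Benjamini-Hochberg adjustment. Of these 4504 (27.0%) were higher in VIL and 3285 (19.7%) lower, and the median log2 fold change was 0.02. With a log2 fold change of 1 or more in size required, 3170 were higher and 1624 lower. Many of the higher genes were close to absent in MG_Control: 446 had no count in any MG_Control library, whereas 23 of the lower genes had none in VIL. Among the 13946 genes with at least 10 counts in each MG_Control library, 3216 (23.1%) were higher and 3271 (23.5%) lower. The split depends on the scaling: 57.8% of the called genes were higher under TMM and 23.5% when libraries were scaled on the epithelial identity genes, which moved the median of all genes to -0.69. That scaling used the summed counts of those genes, so abundant members such as Krt8, itself higher in VIL, weighed most. VIL replicate 1 alone against MG_Control gave 4637 genes. Against COL_cWRNE, VIL differed in 1276 genes (7.64%), 949 higher (5.68%) and 327 lower (1.96%). That count was less stable: it was 371, 474 and 351 without COL_cWRNE replicates 1, 2 and 3, 678 without VIL replicate 2 and 2050 without VIL replicate 1. Counts of list members against COL_cWRNE are therefore followed by their lowest and highest value with each of the 6 libraries left out in turn, and tests of single genes against COL_cWRNE are printed only for genes called without each of them.

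**Figure D1:**
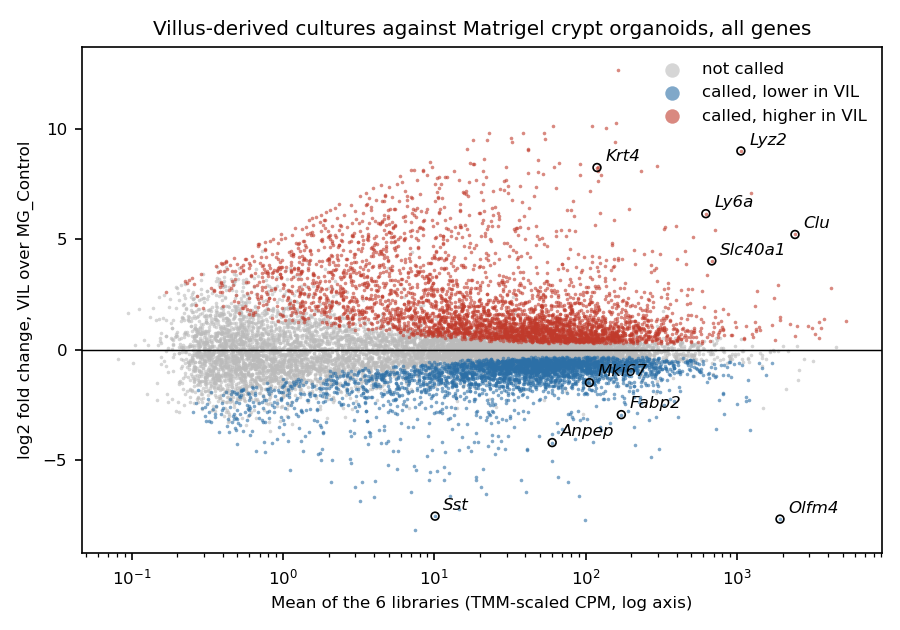
Log2 fold change of VIL over MG_Control (vertical axis) against the mean level of the 6 libraries in CPM (horizontal log axis) for 16002 tested genes; red points were called higher in VIL, blue points lower, grey points not called. The 697 tested genes with 3 or fewer counts over a whole group are not drawn, and Clu, Ly6a, Krt4, Lyz2 and Slc40a1 lie far above 0 while Olfm4, Sst, Anpep, Fabp2 and Mki67 lie below it.

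Genes of the fetal-like, regenerating epithelium were higher in VIL throughout. All 24 tested members of that list were called higher. Of these 15 had at least 10 counts in each MG_Control library, where 23.1% of all genes so expressed were higher; the other 9 passed the filter with fewer MG_Control counts. Summed, the list stood at 9869, 18521 and 20295 CPM in VIL, 18328, 21581 and 13649 CPM in COL_cWRNE and 839.8, 847 and 648 CPM in MG_Control, so that every VIL and COL_cWRNE library lay above every MG_Control library. Against COL_cWRNE, 2 members were higher in VIL (1 to 4 with a library left out) and 1 lower (0 to 4). Fold changes below are log2 values of VIL over MG_Control, and adjusted p values come from the same edgeR fit. The value after ± is a standard error derived from the test. It is the size of the log2 fold change over the square root of the F statistic.

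Clu, the secreted chaperone clusterin that marks revival stem cells, was at 2900.0, 5935 and 5284 CPM in VIL, 4050.5, 5615 and 2836 CPM in COL_cWRNE and 125, 135 and 117 CPM in MG_Control, a log2 fold change of 5.23 ± 0.35 (adjusted p = 2.32e-05). Ly6a, which encodes the surface antigen Sca-1, was at 629, 1417 and 1636 CPM in VIL, 2290.5, 1928 and 1719 CPM in COL_cWRNE and 21.6, 19.9 and 9.69 CPM in MG_Control (6.17 ± 0.46, adjusted p = 3.01e-05). Anxa1, the anti-inflammatory annexin A1, was at 516, 739.7 and 688 CPM in VIL, 1360.0, 1550.1 and 1015 CPM in COL_cWRNE and 18.4, 16.7 and 7.94 CPM in MG_Control (5.50 ± 0.36, adjusted p = 2.32e-05). For all 3 genes the lowest VIL library was VIL replicate 1, and it still lay more than 10 times above the highest MG_Control library. Ly6a belongs to a family of near-identical genes, so its reads may be shared between copies.

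Anxa8, another annexin, was at 55.6, 130.4 and 183 CPM in VIL and 0.512, 0.464 and 0.215 CPM in MG_Control (8.29 ± 0.56, adjusted p = 2.32e-05). Ereg, the EGF receptor ligand epiregulin, was at 32.1, 34.8 and 31.3 CPM in VIL and 1.02, 1.32 and 1.56 CPM in MG_Control (4.64 ± 0.27, adjusted p = 1.66e-05). The VIL libraries lay close together for Ereg. Tnfrsf11b, the decoy receptor osteoprotegerin, was at 101, 187 and 186 CPM in VIL, 287, 397 and 345 CPM in COL_cWRNE and 1.54, 1.75 and 2.55 CPM in MG_Control (6.34 ± 0.33, adjusted p = 1.26e-05), its VIL values all below COL_cWRNE. Spp1, the secreted phosphoprotein osteopontin, which macrophages also make, was at 308, 1347 and 659 CPM in VIL and 88.4, 186 and 68.3 CPM in COL_cWRNE with no MG_Control count. That is at least 22603-fold higher than in MG_Control, taking 3 counts over the group as the floor. Gja1, the gap junction protein connexin 43, which fibroblasts and muscle also make, was at 17.3, 65.9 and 94.3 CPM in VIL, 0.342, 0.425 and 0.422 CPM in COL_cWRNE and 0, 0.571 and 0 CPM in MG_Control (7.20 ± 0.98 over COL_cWRNE, adjusted p = 0.00399).

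YAP target genes were higher in VIL as well. Of 21 tested members 20 were higher in VIL and none lower, and 14 of the 15 with at least 10 counts in each MG_Control library were higher. The list summed to 1111, 2473 and 3926 CPM in VIL, 3886, 4014 and 3075 CPM in COL_cWRNE and 217, 207 and 194 CPM in MG_Control, with VIL replicates 1 and 2 below every COL_cWRNE library. Ccn2, the matricellular connective tissue growth factor, was at 127, 319 and 693 CPM in VIL, 814, 889 and 592 CPM in COL_cWRNE and 4.25, 5.50 and 3.86 CPM in MG_Control (6.39 ± 0.61, adjusted p = 8.26e-05). Myof, the membrane repair protein myoferlin, was at 118, 177 and 382 CPM in VIL and 5.23, 4.28 and 3.99 CPM in MG_Control (5.65 ± 0.45, adjusted p = 3.78e-05). The Hippo pathway's own feedback genes were included: Lats2, the kinase that restrains YAP, was at 24.0, 31.9 and 47.0 CPM in VIL and 2.78, 2.82 and 1.66 CPM in MG_Control (3.83 ± 0.31, adjusted p = 4.10e-05). Ajuba, an inhibitor of that kinase, was at 119, 162 and 153 CPM in VIL, 260.0, 288 and 226 CPM in COL_cWRNE and 24.8, 24.4 and 27.0 CPM in MG_Control (2.51 ± 0.16, adjusted p = 2.06e-05). Against COL_cWRNE 1 member was higher (0 to 5 with a library left out) and 2 lower (0 to 3). Ankrd1, a muscle ankyrin repeat protein used as a YAP reporter gene, was at 13.5, 54.4 and 17.8 CPM in VIL, 74.7, 98.6 and 41.0 CPM in COL_cWRNE and 0.0366, 0 and 0.0307 CPM in MG_Control. With 2 counts in MG_Control the ratio was 1373 (exact 95% interval for counting error 379.8 to 11346).

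**Figure D2:**
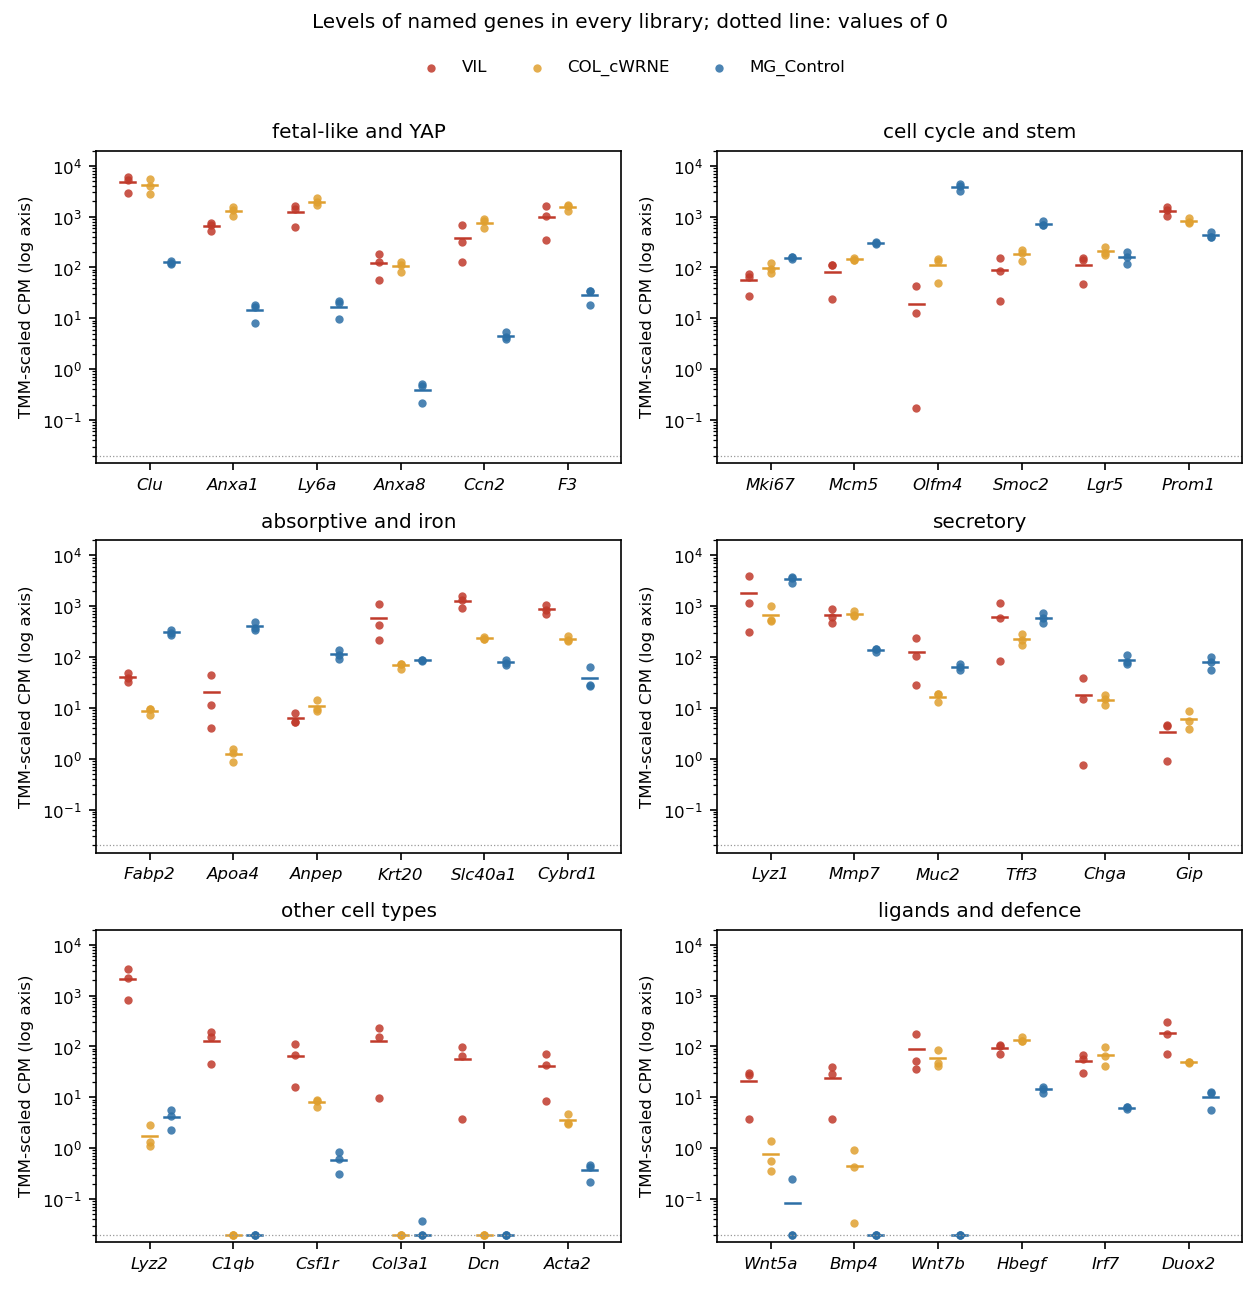
Levels of 36 named genes in CPM (vertical log axis) in each library of VIL, COL_cWRNE and MG_Control, left to right for each gene; points are libraries, short lines group means, and values of 0 lie on the dotted line. Clu, Anxa1 and Ly6a are above 500 CPM in every VIL library and below 150 CPM in every MG_Control library, while Lyz1, Muc2, Tff3 and Chga are spread widely among the VIL libraries.

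Promoter sequences of genes that moved are shown for 3 motifs, since YAP acts on DNA through TEAD factors, AP-1 factors bind many regenerative genes and HNF4 factors bind many enterocyte genes. The windows run from 250 bases before to 50 after the transcription start in RefSeq's GRCm38.p6 annotation; the files use GRCm39, so these coordinates are not those of the files. Letters were searched on both strands: TGANTCA for AP-1, GGAATG for TEAD and CAAAGTNCA for HNF4. A match is a string in a short window and not evidence of binding. Of 27025 windows, 7.93% held the AP-1 letters, 14.6% the TEAD letters and 1.41% the HNF4 letters. Of the 15 YAP target genes with a window, 8 held the TEAD letters, among them Ccn1 and Ankrd1. Of the 15 fetal-like genes with a window 5 held the AP-1 letters, among them Il1rn. Of the 25 enterocyte genes with a window 5 held the HNF4 letters, among them Fabp2 and Apoa4. The TEAD letters were also in 6 of the 25 enterocyte windows and 3 of the 15 fetal-like windows, and the AP-1 letters in 1 of the 15 YAP target windows and in no enterocyte window. The HNF4 letters were in no fetal-like or YAP target window. Il1rn encodes the interleukin 1 receptor antagonist and Ccn1 a matricellular partner of Ccn2; the 5 genes were chosen after their values were seen. The windows lie at chr2:24336610-24336909 (plus strand) for Il1rn, chr3:145649936-145650235 (minus strand) for Ccn1, chr19:36119795-36120094 (minus strand) for Ankrd1, chr3:122894822-122895121 (plus strand) for Fabp2 and chr9:46240594-46240893 (plus strand) for Apoa4. Each is printed 5′ to 3′ on the gene's strand, with the AP-1 letters in capitals in Il1rn, the TEAD letters in Ccn1 and Ankrd1, and the HNF4 letters in Fabp2 and Apoa4, as they read on either strand.
Il1rn: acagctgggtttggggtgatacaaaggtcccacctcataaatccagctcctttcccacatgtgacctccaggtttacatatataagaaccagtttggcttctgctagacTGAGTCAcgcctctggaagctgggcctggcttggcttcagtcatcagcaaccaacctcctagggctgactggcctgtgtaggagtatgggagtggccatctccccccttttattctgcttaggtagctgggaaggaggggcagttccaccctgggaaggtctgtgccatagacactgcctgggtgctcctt
Ccn1: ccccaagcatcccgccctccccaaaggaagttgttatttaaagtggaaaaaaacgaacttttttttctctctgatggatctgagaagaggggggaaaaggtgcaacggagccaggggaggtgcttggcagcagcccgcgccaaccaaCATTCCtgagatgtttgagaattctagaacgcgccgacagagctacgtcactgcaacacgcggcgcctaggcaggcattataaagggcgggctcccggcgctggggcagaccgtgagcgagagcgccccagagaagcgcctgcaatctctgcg
Ankrd1: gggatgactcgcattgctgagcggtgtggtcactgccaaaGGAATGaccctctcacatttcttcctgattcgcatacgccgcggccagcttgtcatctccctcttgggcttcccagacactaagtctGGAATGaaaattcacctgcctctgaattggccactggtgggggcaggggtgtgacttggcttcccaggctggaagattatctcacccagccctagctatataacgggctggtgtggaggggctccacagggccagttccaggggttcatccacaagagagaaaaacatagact
Fabp2: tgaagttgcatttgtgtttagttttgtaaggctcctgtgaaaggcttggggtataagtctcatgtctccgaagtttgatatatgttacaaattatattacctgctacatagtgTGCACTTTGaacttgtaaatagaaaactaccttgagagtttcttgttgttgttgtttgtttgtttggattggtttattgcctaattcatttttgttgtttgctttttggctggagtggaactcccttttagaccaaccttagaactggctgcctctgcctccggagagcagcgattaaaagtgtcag
Apoa4: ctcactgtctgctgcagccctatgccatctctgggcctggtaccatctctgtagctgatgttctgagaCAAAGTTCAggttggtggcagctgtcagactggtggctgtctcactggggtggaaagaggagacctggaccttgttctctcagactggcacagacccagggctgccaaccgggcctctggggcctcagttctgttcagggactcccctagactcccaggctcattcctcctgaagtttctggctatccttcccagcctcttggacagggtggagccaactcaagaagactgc

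The genes behind those sequences moved in opposite directions. Il1rn was at 494, 874 and 609 CPM in VIL and 19.6, 14.5 and 7.76 CPM in MG_Control (5.56 ± 0.39, adjusted p = 2.48e-05). Ccn1 was at 96.8, 197 and 253 CPM in VIL, 460.3, 413 and 355 CPM in COL_cWRNE and 21.2, 29.2 and 25.2 CPM in MG_Control (2.85 ± 0.32, adjusted p = 1.76e-04). Fabp2 and Apoa4, given with the enterocyte genes below, were lower in VIL. Of 12 tested keratins and cornified envelope genes of stratified epithelium, 9 were higher and 1 lower. Among the 5 with at least 10 counts in each MG_Control library 3 were higher and 1 lower, and the rest passed the filter with fewer MG_Control counts. Krt4, a keratin of oesophageal lining, was at 291, 146 and 274 CPM in VIL, 234, 266 and 149.9 CPM in COL_cWRNE and 1.17, 0.536 and 0.613 CPM in MG_Control (8.26 ± 0.45, adjusted p = 1.35e-05). Krt23 was at 118, 179 and 269.5 CPM in VIL and 61.1, 50.7 and 52.3 CPM in MG_Control (1.79 ± 0.28, adjusted p = 9.00e-04). Krt15, the 1 lower member, was at 0.420, 0.541 and 0.219 CPM in VIL and 3.59, 2.53 and 1.72 CPM in MG_Control (-2.70 ± 0.53, adjusted p = 0.00325), low in both.

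Receptors and ligands for the extracellular matrix were higher in VIL. Of 21 integrin, laminin and focal adhesion genes 20 were higher and none lower, 19 of them among the 20 with at least 10 counts in each MG_Control library. They summed to 3540.2, 4849 and 7629 CPM in VIL, 4942, 6445 and 4779 CPM in COL_cWRNE and 1368, 1351 and 1617 CPM in MG_Control. Lama3, a laminin alpha chain of the epithelial basement membrane, was at 75.4, 174 and 566 CPM in VIL and 0.0732, 0.321 and 0.337 CPM in MG_Control (10.07 ± 0.92, adjusted p = 7.01e-05). Itgb4, an integrin chain of hemidesmosomes, was at 259, 382 and 622 CPM in VIL and 68.1, 60.0 and 75.8 CPM in MG_Control (2.63 ± 0.31, adjusted p = 2.26e-04). Both were lowest in VIL replicate 1 and highest in VIL replicate 3. Itgb6, a fibronectin and latent TGF-beta receptor chain of epithelium, was more even, at 221, 216 and 286 CPM in VIL and 23.8, 37.0 and 35.1 CPM in MG_Control (2.91 ± 0.22, adjusted p = 3.01e-05). Flna, the actin cross-linker filamin A, was at 373, 456 and 552 CPM in VIL and 74.6, 71.4 and 108 CPM in MG_Control (2.44 ± 0.27, adjusted p = 1.60e-04).

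Matrix proteases and their inhibitors were higher too. All 18 tested members of that list were called higher, but only 8 of them had at least 10 counts in each MG_Control library, and all 8 were higher. Timp2, a metalloproteinase inhibitor, was at 136, 345 and 260.3 CPM in VIL, 197, 256 and 126 CPM in COL_cWRNE and 5.49, 2.21 and 2.45 CPM in MG_Control (6.19 ± 0.52, adjusted p = 4.77e-05). Plat, the tissue plasminogen activator, was at 134, 269.9 and 301 CPM in VIL, 245, 243 and 216 CPM in COL_cWRNE and 18.8, 17.2 and 10.7 CPM in MG_Control (3.92 ± 0.33, adjusted p = 4.82e-05). Plaur, the urokinase receptor, was at 158, 267 and 215 CPM in VIL and 34.2, 33.7 and 19.4 CPM in MG_Control (2.88 ± 0.28, adjusted p = 8.62e-05). VIL and COL_cWRNE overlapped for Timp2 and Plat. Another set was close to absent in both kinds of crypt organoid: Mmp12, the macrophage elastase, was at 100.0, 334 and 439 CPM in VIL and 0, 0.910 and 0 CPM in COL_cWRNE with no MG_Control count, at least 8529-fold higher. Mmp13, a collagenase, was at 38.4, 111 and 410.4 CPM in VIL with no count in COL_cWRNE or MG_Control, at least 5469-fold higher than in MG_Control. Mmp10 (17.2, 172 and 309 CPM in VIL, at least 4865-fold higher) and Mmp9 (13.3, 139.7 and 563 CPM in VIL, at least 6994-fold higher) also had no MG_Control count. All 4 were lowest in VIL replicate 1 and highest in VIL replicate 3, as was the summed level of the macrophage markers below, whose part in these values was not tested.

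**Figure D3:**
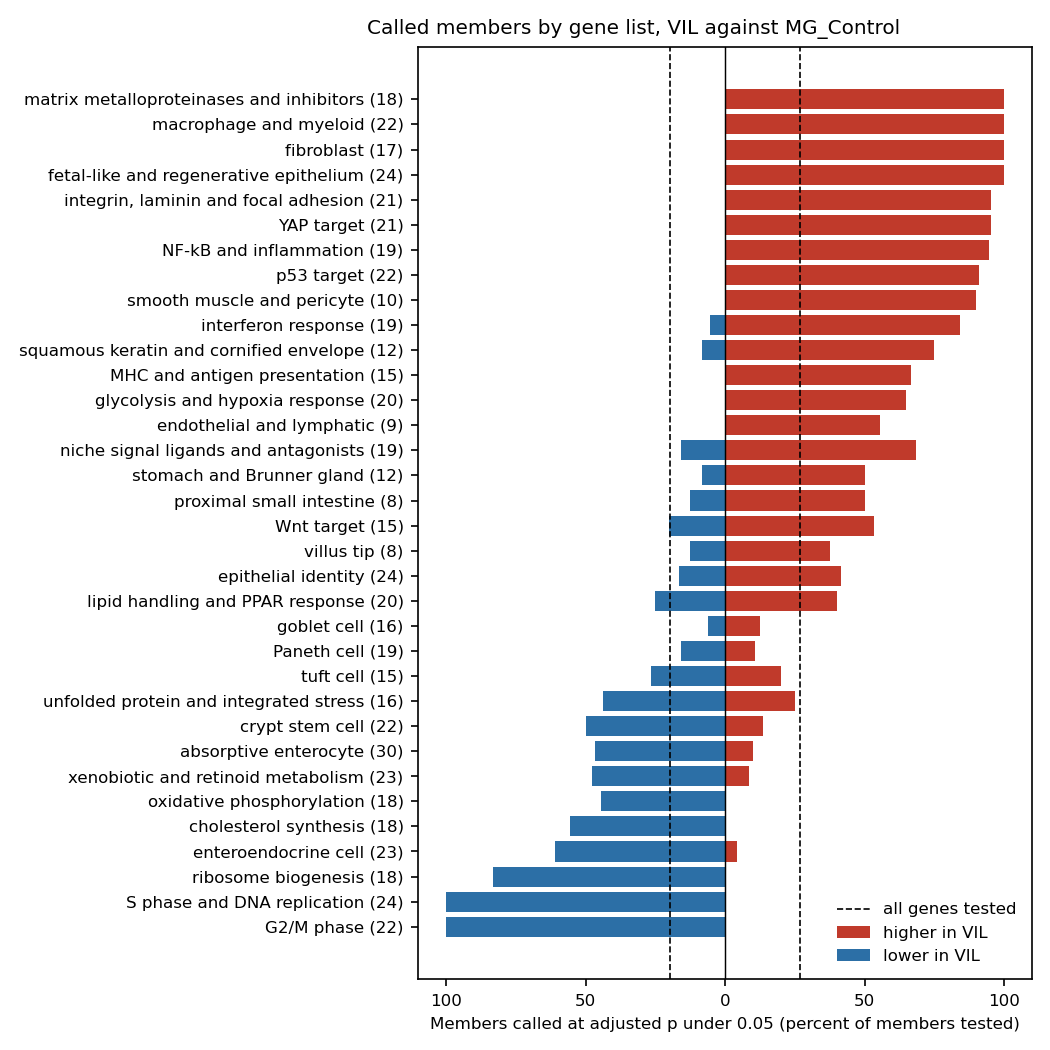
Members of each gene list called at an adjusted p under 0.05 as a percentage of the members tested (number in brackets), to the right for higher and to the left for lower in VIL than in MG_Control; dashed lines mark 27.0% and 19.7% of all genes tested. Fetal-like, YAP, integrin, metalloproteinase, fibroblast and macrophage lists reach or approach 100% on the right, and the cell cycle lists reach it on the left; in several lists members passed the filter through VIL alone.

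Cell division genes were lower in VIL. All 22 G2/M genes and all 24 S phase genes were called lower. With a library left out or under another scaling, at least 18 of the G2/M genes and 23 of the S phase genes still were. The G2/M list summed to 1513, 1529 and 557 CPM in VIL, 2473, 2041 and 2692 CPM in COL_cWRNE and 3084, 3251 and 3282 CPM in MG_Control. The S phase list summed to 1732, 1684 and 718 CPM in VIL, 2260.3, 2099.9 and 2376 CPM in COL_cWRNE and 3535, 3710.3 and 3753 CPM in MG_Control. VIL replicate 3 was the lowest library of the 9 for both. Their median log2 fold changes were -1.40 and -1.52, beside 0.02 over all genes, and against COL_cWRNE 4 G2/M genes (0 to 16 with a library left out) and 1 S phase gene (0 to 9) were lower and none higher.

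Mki67, the proliferation antigen Ki-67, was at 65.3, 74.2 and 27.3 CPM in VIL, 92.9, 77.6 and 124 CPM in COL_cWRNE and 161, 145 and 162 CPM in MG_Control (-1.49 ± 0.32, adjusted p = 0.00515). Kif11, the spindle motor Eg5, was at 47.0, 45.0 and 14.3 CPM in VIL and 126, 133 and 170.0 CPM in MG_Control (-2.01 ± 0.39, adjusted p = 0.00292). Ttk, the spindle checkpoint kinase, was at 15.8, 13.4 and 7.52 CPM in VIL, 22.0, 25.7 and 27.7 CPM in COL_cWRNE and 34.8, 43.5 and 45.7 CPM in MG_Control (-1.75 ± 0.26, adjusted p = 7.69e-04). No VIL library overlapped MG_Control for these genes. Rfc3, a subunit of the clamp loader of DNA replication, was at 21.5, 24.7 and 11.7 CPM in VIL and 72.5, 73.8 and 62.9 CPM in MG_Control (-1.85 ± 0.25, adjusted p = 5.16e-04). Gins1, of the replicative helicase, was at 6.99, 7.01 and 4.63 CPM in VIL and 17.4, 22.5 and 19.7 CPM in MG_Control (-1.67 ± 0.24, adjusted p = 6.04e-04).

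Ribosome biogenesis genes were lower as well, and p53 targets were higher. Of 18 ribosome biogenesis genes 15 were lower and none higher, with a median of -1.05. They summed to 2446, 2045 and 1161 CPM in VIL, 2709, 2433 and 2505 CPM in COL_cWRNE and 3607, 4008 and 3712 CPM in MG_Control. None was called against COL_cWRNE (0 to 1 lower with a library left out). Dkc1, the pseudouridine synthase dyskerin, was at 99.9, 79.0 and 37.9 CPM in VIL and 195, 224 and 203 CPM in MG_Control (-1.52 ± 0.29, adjusted p = 0.00263). Ncl, nucleolin, was at 513, 396 and 217 CPM in VIL and 784, 853 and 831 CPM in MG_Control (-1.13 ± 0.26, adjusted p = 0.00615). Of 22 p53 targets 20 were higher and none lower (13 higher and 2 lower when scaled on the epithelial identity genes). They summed to 3055, 3192 and 4221 CPM in VIL, 3061, 3298 and 2550 CPM in COL_cWRNE and 1132, 1159 and 1105 CPM in MG_Control. Against COL_cWRNE 2 were higher (0 to 3 with a library left out) and none lower (0 to 2). Cdkn1a, the cyclin-dependent kinase inhibitor p21, was at 497, 423 and 664 CPM in VIL, 398, 337 and 289.7 CPM in COL_cWRNE and 139, 98.9 and 68.4 CPM in MG_Control (2.37 ± 0.27, adjusted p = 2.13e-04). Phlda3, an inhibitor of AKT signalling, was at 121, 154 and 139.8 CPM in VIL and 12.4, 13.6 and 8.31 CPM in MG_Control (3.60 ± 0.25, adjusted p = 2.32e-05). Plk2, a stress-responsive polo-like kinase, was at 181, 275 and 405 CPM in VIL and 20.2, 19.8 and 21.1 CPM in MG_Control (3.82 ± 0.27, adjusted p = 2.69e-05).

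Of the crypt stem cell genes that were called, most were lower. Of 22 members 11 were lower, 3 higher and 8 not called, with a median of -0.71 (1 higher and 16 lower when scaled on the epithelial identity genes, which ended the call of Rnf43). In this list 7 were lower than in COL_cWRNE (2 to 11 with a library left out). Summed, they stood at 4316, 3386 and 3033 CPM in VIL, 4112, 3897 and 4584 CPM in COL_cWRNE and 7914, 8802 and 10249 CPM in MG_Control. Olfm4, the crypt base glycoprotein, fell furthest, to 43.1, 12.9 and 0.175 CPM in VIL and 146, 50.5 and 134 CPM in COL_cWRNE, against 3245, 3924 and 4313 CPM in MG_Control (-7.67 ± 1.33, adjusted p = 0.00167). Aqp4, a water channel of crypt base cells, was at 9.32, 6.26 and 2.89 CPM in VIL, 15.3, 6.16 and 16.3 CPM in COL_cWRNE and 93.2, 95.8 and 86.4 CPM in MG_Control (-3.89 ± 0.46, adjusted p = 2.44e-04). Lgr5, the R-spondin receptor of crypt stem cells, was not called, at 151, 139 and 46.9 CPM in VIL, 195, 173 and 258 CPM in COL_cWRNE and 201, 116 and 158 CPM in MG_Control (-0.49 ± 0.38, adjusted p = 0.314). VIL replicate 3 alone lay below MG_Control. Prom1, which encodes CD133, was higher, at 1052, 1354 and 1536 CPM in VIL and 392, 393 and 497 CPM in MG_Control (1.62 ± 0.18, adjusted p = 1.78e-04). Rnf43, which removes Wnt receptors, was higher too, at 199.6, 159 and 181 CPM in VIL and 85.9, 85.8 and 98.7 CPM in MG_Control (1.00 ± 0.13, adjusted p = 4.18e-04).

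Wnt target genes were called higher in 8 of 15 tested and lower in 3, beside 27.0% and 19.7% of all genes tested. Of the 10 with at least 10 counts in each MG_Control library 4 were higher and 3 lower. Among all genes so expressed 23.1% were higher and 23.5% lower, so the share lower was near that of all genes. In this list 1 was higher (0 to 2 with a library left out) and 4 were lower (1 to 6) than in COL_cWRNE. Axin2, the feedback scaffold of the pathway, was at 18.6, 13.0 and 17.1 CPM in VIL, 46.0, 52.7 and 56.8 CPM in COL_cWRNE and 50.3, 39.8 and 48.0 CPM in MG_Control (-1.50 ± 0.17, adjusted p = 2.16e-04, and -1.68 ± 0.17 over COL_cWRNE, adjusted p = 0.00138). Cd44, a hyaluronan receptor, was higher, at 199, 422 and 232 CPM in VIL and 69.9, 75.9 and 97.7 CPM in MG_Control (1.81 ± 0.28, adjusted p = 9.76e-04). Ccnd1, cyclin D1, was at 155, 205 and 167 CPM in VIL and 51.5, 59.5 and 46.1 CPM in MG_Control (1.74 ± 0.17, adjusted p = 8.94e-05). VIL and COL_cWRNE overlapped for Ccnd1, which was at 222, 204 and 166 CPM in COL_cWRNE.

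Most of the absorptive enterocyte genes that were called were lower in VIL than in MG_Control. Of 30 members 14 were lower, 3 higher and 13 not called, with a median of -1.83, and 10 were higher (4 to 20 with a library left out) and 1 lower (0 to 2) than in COL_cWRNE. They summed to 4794, 2340.0 and 2402 CPM in VIL, 963, 1202 and 932 CPM in COL_cWRNE and 7091, 6321 and 7054 CPM in MG_Control, so every VIL library lay between the other groups. VIL replicate 1 held about as much as the other VIL libraries together, and without it, or when libraries were scaled on the epithelial identity genes, 23 members were called lower. Fabp2, the intestinal fatty acid binding protein, was at 47.6, 39.4 and 32.1 CPM in VIL, 9.40, 9.32 and 7.37 CPM in COL_cWRNE and 275, 344 and 294 CPM in MG_Control (-2.94 ± 0.18, adjusted p = 2.06e-05, and 2.19 ± 0.18 over COL_cWRNE, adjusted p = 4.11e-04). Apoa4, an apolipoprotein of chylomicrons, was at 44.8, 11.5 and 4.02 CPM in VIL, 1.57, 1.30 and 0.844 CPM in COL_cWRNE and 492, 372 and 343 CPM in MG_Control (-4.32 ± 0.73, adjusted p = 0.00146). Rbp2, the retinol carrier of enterocytes, was at 22.0, 29.9 and 8.83 CPM in VIL, 4.68, 5.86 and 3.54 CPM in COL_cWRNE and 208, 253 and 228 CPM in MG_Control (-3.50 ± 0.39, adjusted p = 1.76e-04).

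Other absorptive genes took different courses. Anpep, the brush border peptidase aminopeptidase N, was low in VIL and COL_cWRNE alike, at 5.27, 5.23 and 8.09 CPM in VIL and 9.40, 8.83 and 14.1 CPM in COL_cWRNE, against 91.8, 110.4 and 139.6 CPM in MG_Control (-4.20 ± 0.28, adjusted p = 2.32e-05). Dpp4, another brush border peptidase, was at 9.32, 15.0 and 3.02 CPM in VIL, 29.0, 26.9 and 40.8 CPM in COL_cWRNE and 128, 109.9 and 126 CPM in MG_Control (-3.72 ± 0.47, adjusted p = 3.42e-04), and its VIL values lay below COL_cWRNE. Krt20, the keratin of shed and differentiated cells, was higher, at 213, 418 and 1084 CPM in VIL, 73.3, 72.9 and 57.9 CPM in COL_cWRNE and 87.4, 85.9 and 83.8 CPM in MG_Control (2.74 ± 0.48, adjusted p = 0.00188). Cubn, the cobalamin uptake receptor cubilin, was at 24.7, 5.38 and 4.59 CPM in VIL, 0.786, 1.55 and 0.844 CPM in COL_cWRNE and 0.110, 0.214 and 0 CPM in MG_Control (6.73 ± 1.04, adjusted p = 8.96e-04). Of 8 villus tip genes 3 were higher and 1 lower in VIL (1 higher and 2 lower when scaled on the epithelial identity genes, and 6 higher and 1 lower without VIL replicate 1). Among the 6 with at least 10 counts in each MG_Control library 2 were higher and 1 lower, beside 23.1% and 23.5% of all genes so expressed. Nt5e, the ectonucleotidase CD73 of villus tip cells, which fibroblasts also carry, was at 4.77, 52.8 and 126 CPM in VIL, 15.3, 29.7 and 15.5 CPM in COL_cWRNE and 1.06, 0.0357 and 0 CPM in MG_Control (7.43 ± 1.40, adjusted p = 0.0026). Creb3l3, a transcription factor of lipid handling, was at 17.6, 14.9 and 13.5 CPM in VIL, 0.718, 2.06 and 0.552 CPM in COL_cWRNE and 44.4, 41.1 and 41.5 CPM in MG_Control (-1.47 ± 0.37, adjusted p = 0.0103).

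Most of the regional markers that were called were higher in VIL, though not under every scaling. Of 8 proximal small intestine genes 4 were higher and 1 lower in VIL, beside 27.0% and 19.7% of all genes tested. The counts were 3 higher and 4 lower when scaled on the epithelial identity genes and 4 higher and 2 lower without VIL replicate 1. Without MG_Control replicate 3 they were 4 higher and none lower. With a log2 fold change of 1 or more in size required they were 3 higher and none lower. Against COL_cWRNE 3 were higher (2 to 4 with a library left out). The 3 iron transport genes described here were chosen from this list. Slc40a1, the iron exporter ferroportin, which macrophages also carry, was at 1618, 1299 and 936 CPM in VIL, 221, 229 and 249 CPM in COL_cWRNE and 75.9, 71.1 and 89.1 CPM in MG_Control (4.03 ± 0.22, adjusted p = 1.35e-05, and 2.46 ± 0.20 over COL_cWRNE, adjusted p = 4.11e-04). The part of macrophages in this value was not tested. Cybrd1, the brush border ferric reductase, was at 713, 1057 and 827 CPM in VIL, 218, 209 and 260.0 CPM in COL_cWRNE and 62.8, 28.7 and 26.7 CPM in MG_Control (4.46 ± 0.35, adjusted p = 3.83e-05, and 1.92 ± 0.32 over COL_cWRNE, adjusted p = 0.00875). Slc11a2, the iron importer DMT1, was at 747, 394 and 187 CPM in VIL, 97.2, 98.9 and 108 CPM in COL_cWRNE and 126, 108 and 113 CPM in MG_Control (1.94 ± 0.39, adjusted p = 0.00363). Every VIL library lay above both kinds of crypt organoid for the 3 iron genes. For Slc11a2, however, the call over COL_cWRNE was lost without COL_cWRNE replicate 1, 2 or 3 (adjusted p = 0.0645, 0.0613 and 0.0622 in edgeR). Onecut2, a proximal transcription factor, was at 76.4, 113 and 120.0 CPM in VIL and 59.1, 54.6 and 60.1 CPM in MG_Control (0.83 ± 0.17, adjusted p = 0.0043). Among 5 distal genes 2 were higher and none lower. Only 1 of the 4 with at least 10 counts in each MG_Control library was higher, beside 23.1% of all genes so expressed. Slc10a2, the ileal bile acid transporter, was at 1.53, 5.11 and 2.45 CPM in VIL and 0.915, 0.500 and 0.797 CPM in MG_Control (2.04 ± 0.53, adjusted p = 0.0117). Fgf15, an ileal hormone, was at 1.15, 0.421 and 18.1 CPM in VIL and 0.146, 0.179 and 0.368 CPM in MG_Control (4.78 ± 1.28, adjusted p = 0.0136). The Fgf15 call was lost without VIL replicate 3 (adjusted p = 0.0578), MG_Control replicate 1 (adjusted p = 0.0540) or MG_Control replicate 2 (adjusted p = 0.0527).

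The tissue next to the pylorus borders the stomach and holds Brunner glands, so genes of both were counted. Of 12 tested 6 were higher in VIL and 1 lower (6 and 4 when scaled on the epithelial identity genes, 7 and 3 without VIL replicate 1, and 6 and 0 without any single MG_Control library). Among the 9 with at least 10 counts in each MG_Control library 3 were higher and 1 lower, beside 23.1% and 23.5% of all genes so expressed. Ctse, the endosomal protease cathepsin E, was at 116, 494 and 782 CPM in VIL, 131, 164 and 100.4 CPM in COL_cWRNE and 1.68, 1.36 and 1.99 CPM in MG_Control (8.10 ± 0.72, adjusted p = 5.82e-05). Anxa10, a gastric annexin, was at 182, 424 and 324 CPM in VIL, 198, 222 and 160.4 CPM in COL_cWRNE and 24.5, 17.4 and 12.9 CPM in MG_Control (4.09 ± 0.35, adjusted p = 5.18e-05). COL_cWRNE held both genes as well. Tff1, a gastric trefoil peptide, was at 3.89, 82.2 and 14.3 CPM in VIL and 0.805, 0.357 and 0.276 CPM in MG_Control (6.13 ± 1.09, adjusted p = 0.00195). Tff2, another trefoil peptide, was at 0.0382, 17.7 and 0.874 CPM in VIL and 0.220, 0.250 and 0.123 CPM in MG_Control, too low in most libraries to be tested. Both were concentrated in VIL replicate 2. The gastric parietal cell gene Atp4b and the gastric factor Sox2 had no count in any of the 9 libraries.

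Paneth and goblet genes were spread widely among the VIL libraries. Paneth genes summed to 13292, 5076 and 1423 CPM in VIL, 5999, 3664 and 4278 CPM in COL_cWRNE and 14469.8, 14063 and 12585 CPM in MG_Control. Goblet genes summed to 5079, 2313 and 688 CPM in VIL, 1158, 894 and 902 CPM in COL_cWRNE and 3168, 2758 and 2845 CPM in MG_Control. VIL replicate 1 was at the MG_Control level for Paneth genes and above it for goblet genes, and VIL replicate 3 was below MG_Control for both. Of 19 Paneth genes 2 were higher and 3 lower, and of 16 goblet genes 2 were higher and 1 lower. Of all genes tested 27.0% were higher and 19.7% lower. Without VIL replicate 1 the counts were 2 higher and 11 lower for Paneth genes and 2 higher and 5 lower for goblet genes, and without VIL replicate 2 they were 1 higher and 2 lower for goblet genes. Scaling on the epithelial identity genes gave 2 higher and 8 lower for Paneth genes and 1 higher and 6 lower for goblet genes. Without MG_Control replicate 1 or MG_Control replicate 2 no Paneth gene was called lower, without MG_Control replicate 3 it was 1, and without VIL replicate 3 the Paneth counts were 4 higher and 5 lower.

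Lyz1, the Paneth cell lysozyme, was at 3900.3, 1148 and 309 CPM in VIL, 985, 539 and 516 CPM in COL_cWRNE and 2863, 3748 and 3555 CPM in MG_Control (-0.92 ± 0.69, adjusted p = 0.292). It shares sequence with Lyz2, and the alpha defensins of the list are near-identical copies, so reads may be split among them. Mmp7, the protease that activates defensins, was higher, at 888, 604 and 474 CPM in VIL, 804, 643 and 659 CPM in COL_cWRNE and 146, 147 and 124 CPM in MG_Control (2.24 ± 0.23, adjusted p = 1.10e-04). Muc2, the gel-forming mucin of goblet cells, was at 238, 107 and 27.5 CPM in VIL, 18.3, 18.3 and 13.1 CPM in COL_cWRNE and 71.7, 55.6 and 62.6 CPM in MG_Control (0.97 ± 0.56, adjusted p = 0.182). Of 16 goblet genes 5 were higher than in COL_cWRNE (2 to 10 with a library left out) and none lower. Sytl2, a granule docking protein, was even among the VIL libraries, at 36.9, 40.0 and 38.7 CPM in VIL and 14.8, 14.2 and 14.5 CPM in MG_Control (1.41 ± 0.16, adjusted p = 1.64e-04).

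Enteroendocrine genes were low in VIL. Of 23 members 14 were lower and 1 higher, with a median of -2.80, and 9 were lower without VIL replicate 2. Sst, somatostatin, was at 0.0382, 0.241 and 0 CPM in VIL, 0.478, 0.121 and 0.325 CPM in COL_cWRNE and 19.6, 25.0 and 15.8 CPM in MG_Control (-7.54 ± 0.79, adjusted p = 1.31e-04). Gip, the incretin of duodenal K cells, was at 4.66, 4.30 and 0.918 CPM in VIL, 8.54, 5.55 and 3.83 CPM in COL_cWRNE and 78.3, 101 and 55.8 CPM in MG_Control (-4.56 ± 0.56, adjusted p = 2.95e-04). Cck, cholecystokinin, was at 3.67, 4.69 and 0.918 CPM in VIL and 44.3, 56.6 and 34.3 CPM in MG_Control (-3.85 ± 0.58, adjusted p = 8.00e-04). Neither VIL nor COL_cWRNE overlapped MG_Control for Sst or Gip. Chga, the granule protein chromogranin A, was not called, at 38.0, 14.7 and 0.743 CPM in VIL and 72.3, 109 and 81.4 CPM in MG_Control (-2.29 ± 0.87, adjusted p = 0.0527). The 1 higher member, Cpe, a prohormone processing enzyme that other cells also make, was at 104, 157 and 181 CPM in VIL and 29.4, 42.5 and 29.5 CPM in MG_Control (2.12 ± 0.38, adjusted p = 0.00212). Of 15 tuft cell genes 3 were higher and 4 lower, beside 27.0% and 19.7% of all genes tested. Leaving out any 1 MG_Control library left 1 lower, leaving out VIL replicate 2 left 2 lower, and 5 were higher without VIL replicate 1. Dclk1, a kinase used as a tuft cell marker, was at 11.9, 25.5 and 3.63 CPM in VIL and 7.91, 9.68 and 12.6 CPM in MG_Control (0.44 ± 0.54, adjusted p = 0.528).

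**Figure D4:**
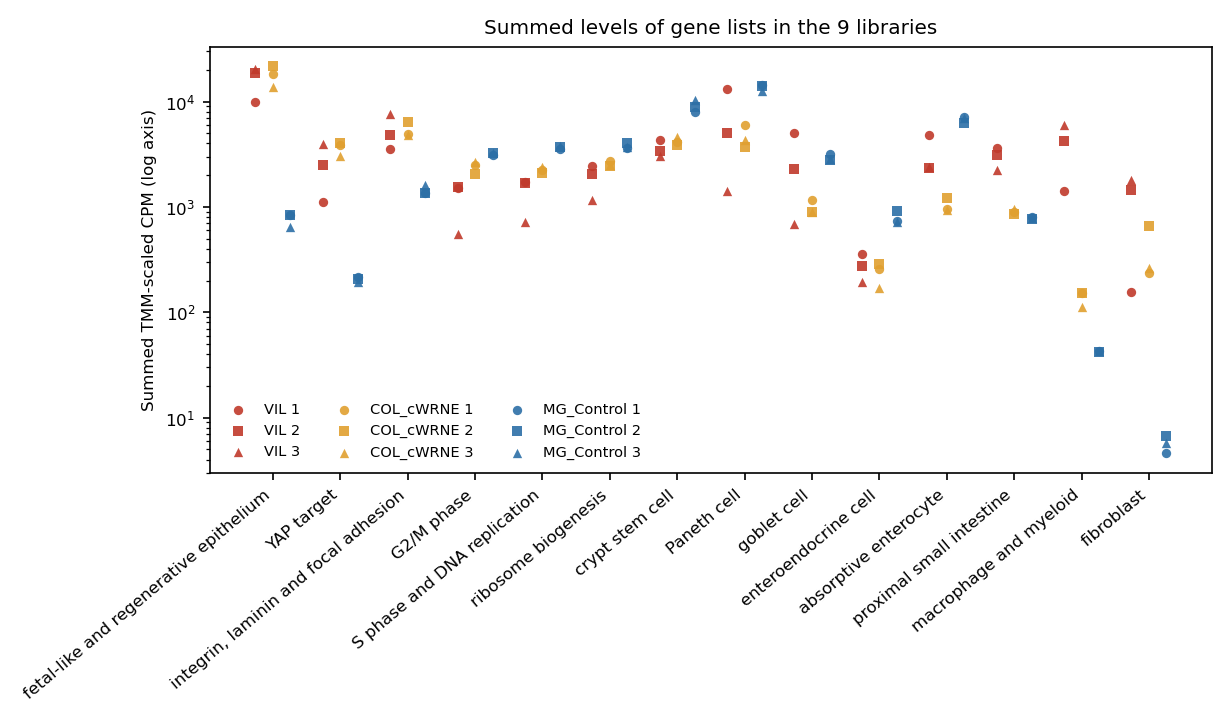
Summed level of 14 gene lists in CPM (vertical log axis) in each library, with VIL, COL_cWRNE and MG_Control from left to right for each list and marker shapes for replicates 1 to 3. Macrophage genes sum to 1419 to 5968 CPM in VIL and to less than 160 CPM in every other library, and among the VIL libraries Paneth and goblet sums are highest in replicate 1 and lowest in replicate 3.

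VIL libraries also held RNA of cells other than epithelium. All 22 tested macrophage and myeloid genes were called higher, 8 of them with at least 10 counts in each MG_Control library. The list summed to 1419, 4216 and 5968 CPM in VIL, 152, 154 and 113 CPM in COL_cWRNE and 43.3, 42.4 and 42.4 CPM in MG_Control; 10 of its 24 members had no MG_Control count. Of 28 fibroblast genes 20 had no count in MG_Control and 18 none in COL_cWRNE. The 17 that passed the filter, mostly through VIL alone, were called higher (median log2 fold change 12.07, or 10.00 with genes at 0 set at their bound). Of them 3 were called under a filter of 10 CPM and 8 with limma on TPM. The fibroblast list summed to 156, 1452 and 1787 CPM in VIL, 236, 663 and 261 CPM in COL_cWRNE, of which Fn1 made up nearly all, and 4.58, 6.75 and 5.70 CPM in MG_Control. VIL replicate 1 had the least of both lists among the VIL libraries. In bulk RNA, fewer cells of a type and less RNA per cell cannot be told apart.

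Lyz2, the macrophage lysozyme, was at 819, 2246 and 3285 CPM in VIL, 1.09, 2.88 and 1.33 CPM in COL_cWRNE and 5.67, 4.36 and 2.30 CPM in MG_Control (9.01 ± 0.71, adjusted p = 3.71e-05). Gpnmb, a glycoprotein of lipid-laden macrophages, was at 195, 639 and 914 CPM in VIL with no MG_Control count, at least 17083-fold higher. C1qb, a chain of complement C1q, was at 45.3, 152 and 191 CPM in VIL with no count in COL_cWRNE or MG_Control, at least 3790.1-fold higher. All 3 were lowest in VIL replicate 1 and highest in VIL replicate 3. Csf1r, the receptor on which macrophages depend, was at 16.3, 68.1 and 110.2 CPM in VIL, 8.82, 8.59 and 6.53 CPM in COL_cWRNE and 0.622, 0.857 and 0.307 CPM in MG_Control (6.77 ± 0.73, adjusted p = 1.48e-04). Col1a1, a fibrillar collagen chain, was at 11.1, 156 and 197 CPM in VIL and 0.786, 0.334 and 0.260 CPM in COL_cWRNE with no MG_Control count, at least 3555-fold higher. Sparc, a matricellular protein of stromal cells, was at 11.3, 179 and 302 CPM in VIL, 0, 0.0910 and 0 CPM in COL_cWRNE and 0, 0 and 0.0920 CPM in MG_Control. With 3 counts in MG_Control the ratio was 4684 (exact 95% interval for counting error 1602 to 22716). Acta2, smooth muscle actin, was at 8.63, 72.2 and 43.6 CPM in VIL, 3.11, 4.70 and 3.02 CPM in COL_cWRNE and 0.476, 0.214 and 0.429 CPM in MG_Control (6.78 ± 0.79, adjusted p = 2.25e-04).

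Other cell types were scarcer. Of 10 smooth muscle genes 9 were higher, 1 of them with at least 10 counts in each MG_Control library (5 with VIL replicate 1 alone and 5 with limma on TPM). Of 9 endothelial genes 5 were higher, 1 of them so expressed (2 without MG_Control replicate 1 or 2, 3 without VIL replicate 3, and none with VIL replicate 1 alone or with limma on TPM). Of 18 lymphocyte genes 5 passed the filter and 3 were higher, none of them so expressed. The T cell genes Cd3e, Cd3d, Cd3g and Cd8a were at or below 0.331 CPM in every VIL library, and Cd4, which macrophages also carry, was at 3.36, 9.68 and 27.8 CPM. Mast cell genes were higher in 6 of 7, none of them so expressed, and Mcpt2 was at 4.58, 36.0 and 46.8 CPM in VIL and 0.110, 0.0357 and 0.245 CPM in MG_Control (7.71 ± 0.99, adjusted p = 3.71e-04). Of 4 glial and neuronal genes tested 2 were higher, and none was without VIL replicate 2 or 3, without MG_Control replicate 1 or 2, or with a replicate block. No erythroid gene passed the filter. The part of these cells in the level of other gene groups was not tested.

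More ligands of the stem cell niche were called higher than lower in VIL. Of 19 tested niche ligands and antagonists 13 were higher and 3 lower, beside 27.0% and 19.7% of all genes tested. Of the 12 with at least 10 counts in each MG_Control library 7 were higher and 3 lower. Among all genes so expressed 23.1% were higher and 23.5% lower, so the share lower was near that of all genes. No MG_Control count was found for 13 of the listed ligands. In this list 4 were higher than in COL_cWRNE (2 to 8 with a library left out). EGF family ligands of epithelium were among those higher, with levels of the same order in COL_cWRNE. Hbegf, a membrane-bound growth factor, was at 71.0, 106 and 104 CPM in VIL, 154, 128 and 126 CPM in COL_cWRNE and 15.9, 14.7 and 12.4 CPM in MG_Control (2.71 ± 0.19, adjusted p = 2.50e-05). Btc, betacellulin, was at 86.4, 102 and 120.5 CPM in VIL, 124, 119.9 and 130.1 CPM in COL_cWRNE and 31.9, 39.2 and 27.9 CPM in MG_Control (1.64 ± 0.17, adjusted p = 1.06e-04). Wnt7b, a Wnt ligand, was at 36.3, 178 and 52.1 CPM in VIL and 47.0, 86.7 and 41.5 CPM in COL_cWRNE with no MG_Control count, at least 2607-fold higher. The Notch ligands diverged. Jag1 was at 82.3, 78.4 and 161 CPM in VIL and 14.5, 12.2 and 21.7 CPM in MG_Control (2.73 ± 0.31, adjusted p = 2.02e-04). Dll1, the ligand of secretory progenitors, was at 17.8, 21.4 and 9.62 CPM in VIL and 55.8, 56.2 and 62.4 CPM in MG_Control (-1.84 ± 0.26, adjusted p = 5.88e-04). Bmp2, which limits crypt growth, was at 34.4, 43.3 and 76.7 CPM in VIL, 24.5, 19.9 and 31.6 CPM in COL_cWRNE and 5.45, 3.86 and 5.92 CPM in MG_Control (3.34 ± 0.34, adjusted p = 1.11e-04). Wnt5a, a ligand of stromal cells, was at 3.67, 27.9 and 30.6 CPM in VIL and 0.547, 1.37 and 0.357 CPM in COL_cWRNE. Bmp4 was at 3.82, 28.8 and 39.3 CPM in VIL and 0.0342, 0.910 and 0.422 CPM in COL_cWRNE. Both were lowest in VIL replicate 1. The R-spondins Rspo2 and Rspo3 had no count in any of the 9 libraries, and Rspo1 reached 0.0874 CPM in VIL replicate 3 alone.

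Most of the inflammatory and interferon response genes tested, and part of the antigen presentation genes, were higher in VIL. Of 19 tested NF-kB and inflammation genes 18 were higher and none lower (14 higher and 1 lower when scaled on the epithelial identity genes). Of the 13 with at least 10 counts in each MG_Control library 12 were higher. In this list 5 were higher (1 to 13 with a library left out) and 1 lower (0 to 1) than in COL_cWRNE. Tnfaip3, the NF-kB inhibitor A20, was at 63.3, 75.1 and 86.6 CPM in VIL, 119, 146 and 105 CPM in COL_cWRNE and 13.0, 9.82 and 11.5 CPM in MG_Control (2.71 ± 0.18, adjusted p = 2.32e-05). Duoxa2, the maturation factor of the epithelial peroxide-producing oxidase, was at 57.5, 174 and 223 CPM in VIL, 37.3, 25.6 and 26.3 CPM in COL_cWRNE and 3.77, 3.32 and 3.40 CPM in MG_Control (5.44 ± 0.48, adjusted p = 5.74e-05). Ccl2, the monocyte chemokine, was at 14.6, 50.2 and 25.4 CPM in VIL and 0.957, 1.88 and 1.01 CPM in COL_cWRNE with no MG_Control count, at least 882-fold higher. Icam1, an adhesion molecule for leukocytes, was at 24.4, 34.4 and 31.7 CPM in VIL, 11.6, 13.8 and 7.89 CPM in COL_cWRNE and 1.65, 2.11 and 1.35 CPM in MG_Control (4.15 ± 0.30, adjusted p = 2.73e-05).

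Most interferon response genes were higher than in MG_Control, and some were lower than in COL_cWRNE. Summed, they stood at 258, 328 and 382 CPM in VIL, 567, 449 and 817 CPM in COL_cWRNE and 259, 203 and 196 CPM in MG_Control. VIL replicate 1 thus lay within the MG_Control range. Of 19 members 16 were higher and 1 lower than in MG_Control, with 9 higher and 1 lower among the 12 with at least 10 counts in each MG_Control library. Against COL_cWRNE 5 were lower (0 to 7 with a library left out) and none higher. Irf7, the master regulator of type I interferon genes, was at 30.7, 56.3 and 68.4 CPM in VIL, 66.4, 40.6 and 97.3 CPM in COL_cWRNE and 6.41, 6.36 and 5.95 CPM in MG_Control (3.05 ± 0.37, adjusted p = 2.63e-04). Isg15, the interferon-induced ubiquitin-like modifier, was at 1.26, 1.65 and 3.59 CPM in VIL, 11.8, 9.13 and 20.3 CPM in COL_cWRNE and 0.220, 0.428 and 0.521 CPM in MG_Control (2.45 ± 0.53, adjusted p = 0.00521). Of 15 MHC and antigen presentation genes 10 were higher and none lower (5 higher and 1 lower when scaled on the epithelial identity genes). Among the 10 with at least 10 counts in each MG_Control library 7 were higher and none lower, beside 23.1% and 23.5% of all genes so expressed. H2-D1, a class I heavy chain whose reads may be shared with its relatives, was at 929, 1198 and 1091 CPM in VIL and 526, 541 and 522 CPM in MG_Control (1.02 ± 0.13, adjusted p = 3.67e-04). Cd74, the class II invariant chain, which macrophages also express, was at 34.1, 157 and 40.5 CPM in VIL, 26.9, 32.0 and 77.8 CPM in COL_cWRNE and 1.46, 4.68 and 0.951 CPM in MG_Control (5.04 ± 0.84, adjusted p = 0.0014).

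Genes with no count in MG_Control led the differences by the fitted fold change. All 15 genes named by size among those higher in VIL had no MG_Control count, and 9 of them were described above among matrix proteases, macrophage, fibroblast and ligand genes and Spp1. Stra6, the retinol uptake receptor, was at 97.5, 88.2 and 97.7 CPM in VIL and 245, 459 and 235 CPM in COL_cWRNE, at least 2769-fold higher than in MG_Control. Cdh13, an anchored cadherin, was at 62.4, 105 and 97.6 CPM in VIL and 28.3, 49.3 and 20.7 CPM in COL_cWRNE (at least 2586-fold higher). Tnc, the matrix protein tenascin C, was at 4.70, 97.6 and 128 CPM in VIL and 8.99, 19.8 and 5.07 CPM in COL_cWRNE (at least 2246-fold higher). Gabrp, a GABA receptor subunit of glandular epithelia, was at 38.2, 559.5 and 7.69 CPM in VIL and 0.376, 6.40 and 2.21 CPM in COL_cWRNE (at least 5915-fold higher), with VIL replicate 2 far above the rest.

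Among the genes lowered most were brush border transporters and secreted proteins. Slc6a19, the neutral amino acid transporter of the brush border, was at 3.05, 0.632 and 0 CPM in VIL and 50.0, 68.5 and 102 CPM in MG_Control (-5.89 ± 1.11, adjusted p = 0.0026). Reg3a, an antimicrobial lectin, was at 0.344, 0.180 and 0.0437 CPM in VIL, 0.137, 0 and 0.130 CPM in COL_cWRNE and 32.8, 30.1 and 24.1 CPM in MG_Control (-7.20 ± 0.66, adjusted p = 6.56e-05). Sfrp5, a secreted Wnt antagonist, was at 0.420, 0.301 and 0 CPM in VIL and 31.7, 23.8 and 20.5 CPM in MG_Control (-6.65 ± 0.77, adjusted p = 2.13e-04). Exosc6, a subunit of the RNA exosome, had no count in VIL or COL_cWRNE against 32.5, 35.1 and 20.5 CPM in MG_Control, at least 806-fold higher in MG_Control. Libraries were not stranded, so reads of overlapping genes cannot be told apart. Whether the absence of Exosc6 counts reflects expression or the assignment of reads was not tested. Among the abundant genes that changed, Krt8, an epithelial keratin, was at 6401, 8727 and 7208 CPM in VIL and 2770.4, 3177 and 3036 CPM in MG_Control (1.31 ± 0.18, adjusted p = 4.57e-04). Pigr, which carries IgA across the epithelium, was at 688, 430.4 and 159 CPM in VIL, 538, 333 and 668 CPM in COL_cWRNE and 1750.3, 1680.1 and 2183 CPM in MG_Control (-2.14 ± 0.46, adjusted p = 0.00481). Dmbt1, a mucosal scavenger protein, was at 466, 254 and 523 CPM in VIL, 65.7, 96.2 and 67.3 CPM in COL_cWRNE and 1699.8, 1474 and 2808 CPM in MG_Control (-2.27 ± 0.33, adjusted p = 6.85e-04).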

How the data were processed

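Libraries were made from RNA with SMART-Seq mRNA and Nextera XT reagents, per the labels' protocols, which do not mark strand, and sequenced on a NovaSeq X Plus. The submitters' processing notes name bcl2fastq 2.20, DRAGEN and the mouse builds GRCm39 and mm39; the annotation and the counting settings are not given in the sources used here. Per gene, the authors deposited estimated counts, some of them not whole, and TPM, which scales counts by gene length and library. Per the series' text the replicates are biological; where they do not come from separate animals, p-values measure the spread between these samples only.

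The estimated counts were rounded, and genes were kept by filterByExpr in edgeR 4.0.16 (R 4.3.3; minimum count 10, total 15). The VIL, COL_cWRNE and MG_Control libraries, 9 in all, entered 1 fit, scaled by TMM, with a quasi-likelihood test for VIL against MG_Control and for VIL against COL_cWRNE; genes were called at a Benjamini-Hochberg adjusted p under 0.05. The procedure was tested on simulated data first. CPM values use TMM library sizes. Folds against a group with no count use 3 counts over that group as a floor. DESeq2 1.42.0 on counts and limma 3.58.1 on log2(TPM + 1), from the deposited TPM, were alternatives, beside other scalings, filters, sample sets, a replicate block and the omission of each library.

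Gene names came from an annotation table that matched 52081 of 55414 identifiers. The members and gene lists were chosen with earlier results of these data known. Genes named are the 15 with the largest change in each direction among those above 10 CPM whose groups do not overlap and the 10 most abundant in each direction with a log2 fold change of 1 or more in size. To these come up to 6 genes with the smallest adjusted p per list and 26 set genes, and the text takes a part of them all. Genes named outside this rule were chosen after their values were seen. Promoter sequences are those of RefSeq for GRCm38.p6. Intervals and floors cover counting error only. Some genes are not reported here.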

Additional observations from a re-analysis of the deposited data

How the results depend on the processing

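The number of genes called between VIL and MG_Control, 7789, moved by more than 1.5 times under 2 alternatives, to 4794 with a log2 fold change of 1 or more in size required and to 4637 with VIL replicate 1 as the only VIL library. The second was chosen after seeing the data, and in it the lone library is assumed to vary like the other groups. Leaving out 1 library gave 5753 to 8604. Between VIL and COL_cWRNE the count of 1276 became 2345 with DESeq2, 743 with only the compared groups fitted and 2480 with all 18 libraries fitted, and 351 to 2050 with 1 library left out. The cause was not tested. Of the genes named, Epcam reversed when libraries were scaled on the epithelial identity genes (-0.26), and its call was lost without MG_Control replicate 1, 2 or 3 (adjusted p = 0.0741, 0.0524 and 0.0527 in edgeR). Of 116 called genes named, 9 lost the call under at least 1 alternative: beside Epcam and Fgf15, Rnf43, Onecut2, Slc10a2, H2-D1 and Hk2 did when scaled on the epithelial identity genes, and Onecut2, Slc10a2, Creb3l3 and Isg15 with VIL replicate 1 alone (adjusted p = 0.0879, 0.220, 0.0870 and 0.0564). Cell cycle, fetal-like, YAP, integrin and matrix protease lists moved by less than 1.5 times in every alternative run, and the 15 lower ribosome biogenesis genes became 10 with VIL replicate 1 alone or with the minimum fold change. A filter of 10 CPM, which leaves fewer genes tested, left 13 macrophage, 4 Wnt target, 4 squamous and 8 niche ligand genes called higher. Same-numbered VIL and MG_Control libraries correlated at 0.0131, 0.289 and 0.165 over 9519 genes, and unlike-numbered ones at -0.213 to 0.0720. These values do not settle whether the numbers mark pairs, and the main fit did not use them as such. A replicate block gave 7476 genes for VIL against MG_Control and 874 for VIL against COL_cWRNE. With 3 libraries a group, and VIL libraries that differ from each other, small differences could not be detected.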

Other observations

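Lists of energy and lipid metabolism genes were counted in edgeR's quasi-likelihood test with Benjamini-Hochberg adjustment, VIL against MG_Control. Of all genes tested 27.0% were higher and 19.7% lower. Of 20 glycolysis and hypoxia response genes 13 were higher in VIL and none lower (4 higher and 1 lower when scaled on the epithelial identity genes). Slc2a1, the glucose transporter GLUT1, was at 324, 305 and 495 CPM in VIL, 400.1, 431 and 415 CPM in COL_cWRNE and 158, 124 and 96.5 CPM in MG_Control (1.57 ± 0.23, adjusted p = 6.30e-04). Hk2, hexokinase 2, was at 112, 72.9 and 133 CPM in VIL, 91.6, 90.3 and 106 CPM in COL_cWRNE and 54.1, 40.0 and 43.0 CPM in MG_Control (1.21 ± 0.22, adjusted p = 0.00195). Of 18 oxidative phosphorylation genes 8 were lower and none higher, but 18 were lower when scaled on the epithelial identity genes, 3 without VIL replicate 2, 16 without VIL replicate 1, 5 without VIL replicate 3 or MG_Control replicate 3, and 1 without MG_Control replicate 1 or MG_Control replicate 2. Of 18 cholesterol synthesis genes 10 were lower and none higher, or 18 when scaled on the epithelial identity genes, 4 without VIL replicate 2 or MG_Control replicate 1, 16 without VIL replicate 1 and 5 without MG_Control replicate 2 or MG_Control replicate 3. Mvk, mevalonate kinase, was at 42.0, 25.7 and 11.9 CPM in VIL, 41.3, 41.3 and 37.6 CPM in COL_cWRNE and 94.8, 90.8 and 95.9 CPM in MG_Control (-1.82 ± 0.35, adjusted p = 0.00287).

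Drug and retinoid metabolism genes were mostly lower in VIL than in MG_Control where called. Of 23 such genes 2 were higher and 11 lower in VIL than in MG_Control, and 12 were higher than in COL_cWRNE (6 to 16 with a library left out). Gstm1, a glutathione transferase with close paralogs, was at 574, 210.0 and 354 CPM in VIL, 442, 279 and 352 CPM in COL_cWRNE and 1573, 2190.2 and 1996 CPM in MG_Control (-2.34 ± 0.34, adjusted p = 6.90e-04). Aldh1a1, a retinal dehydrogenase, was at 23.2, 21.8 and 34.9 CPM in VIL, 13.1, 18.5 and 8.83 CPM in COL_cWRNE and 198, 283 and 304 CPM in MG_Control (-3.30 ± 0.31, adjusted p = 7.75e-05). Ces2c, a carboxylesterase, was at 122, 132 and 84.2 CPM in VIL, 28.6, 30.6 and 18.3 CPM in COL_cWRNE and 293, 324 and 306 CPM in MG_Control (-1.44 ± 0.22, adjusted p = 8.56e-04). Of 20 lipid handling and PPAR response genes 8 were higher and 5 lower (5 and 11 when scaled on the epithelial identity genes, 8 and 8 without VIL replicate 1, and 8 and 2 or 3 without any single MG_Control library). Among all genes with at least 10 counts in each MG_Control library 23.1% were higher and 23.5% lower. The lipid list had a median of -0.15. Its sums overlapped, at 4737, 4190 and 4375 CPM in VIL and 4292, 3878 and 4614 CPM in MG_Control. Angptl4, an inhibitor of lipoprotein lipase, was at 36.2, 90.5 and 49.0 CPM in VIL, 49.9, 38.3 and 30.3 CPM in COL_cWRNE and 15.9, 13.7 and 11.9 CPM in MG_Control (2.08 ± 0.33, adjusted p = 0.00106).

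VIL replicate 2 was the highest library for some gastric genes. Muc5ac, a gastric surface mucin, was at 0, 4.27 and 0 CPM in VIL, 0.137, 0 and 0 CPM in COL_cWRNE, with no count in MG_Control. Aqp5, a water channel of glands, was at 5.19, 178 and 33.9 CPM in VIL and 33.3, 11.7 and 40.0 CPM in COL_cWRNE, with no count in MG_Control.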
